A study of Mus musculus with 14 samples.

Results

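The 55 genes described here make the proteins that copy DNA in S phase. They were chosen by symbol from a list of replication genes, and each had 1 row in both deposited expression tables, among 45706 genes in all. By the step at which their products act, 15 belong to licensing of origins, 8 to origin firing, 4 to fork protection, 20 to the polymerases with their primase, clamp, clamp loader, single-strand binding and strand-joining proteins, 5 to nucleotide supply and 3 to chromatin assembly. The rule reads gene symbols and no measured value.

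Before S phase, the origin recognition complex (Orc1 to Orc6), Cdc6 and Cdt1 load the ring-shaped Mcm2 to Mcm7 helicase onto DNA, and geminin (Gmnn) blocks Cdt1 from loading it again. In S phase the Cdc7 and Dbf4 kinase, Mcm10, Cdc45 and the GINS complex turn loaded helicases into moving forks. Polymerase alpha and its primase then start the strands, polymerases delta and epsilon extend them on the clamp Pcna, and Chaf1a, Chaf1b and Uhrf1 restore histones and the DNA methylation mark behind the fork. Transcription of many of these genes is driven by E2F factors late in G1, and early erythroid cells divide rapidly while they mature, so replication genes are abundant in a normal fetal liver.

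RNA sequencing compared mouse blood-forming cells with and without Prmt5, a protein arginine methyltransferase that places symmetric dimethylarginine. It used 14 libraries in 6 groups. Cells of E14.5 livers (embryonic day) were sorted by Ter119, a surface antigen of maturing erythroid cells. LK cells, a sorted progenitor population, came from mice given poly(I:C), which induces interferon, 7 days earlier, and their age is not stated.

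The Ter119pos KO and Ter119neg KO groups came from PRMT5fl/fl embryos carrying Vav-cre, which deletes floxed alleles in blood-forming cells from early fetal life, and the Ter119pos WT and Ter119neg WT groups from PRMT5fl/fl embryos without it, with 2 libraries in each. Mice 1 and 2 gave both KO fractions and mouse 4 gave both fractions of WT, while Ter119neg WT library A came from mouse 3 and Ter119pos WT library A from mouse 5. The LK KO group carried Mx1-cre, which interferon switches on in blood-forming and other cells, with PRMT5fl/fl, the LK WT group carried PRMT5fl/fl alone, and both received poly(I:C). Each LK group held 3 libraries. No mice are named for LK cells in the labels, and the spread behind the LK p-values is one between libraries, which may be technical. The floxed allele was shared by all 6 groups.

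Total counts ranged from 19514550 to 30976961 per library. Prmt5 itself was at 3.64 to 12.3 CPM in the 7 KO libraries and at 13.8 to 110 CPM in the 7 WT libraries, lower in KO in each population (log2 fold change -2.81 in LK, -3.57 in Ter119neg and -1.89 in Ter119pos cells, edgeR adjusted p = 0.00669, 1.45e-07 and 2.31e-06). All values named CPM are counts relative to a library size that was scaled by the trimmed mean of M values (TMM), separately for fetal and LK libraries. A short set of structural RNAs (Rn7s1, Rn7s2, Rn7sk, Rpph1 and Rmrp) took 35.9% and 34.6% of counts in Ter119pos KO libraries against 6.08% and 6.2% in WT, and 27.6% and 31.4% in Ter119neg KO against 16.7% and 23.3% in WT. With library totals alone as the scale, the median of all genes shifted by -0.89 in Ter119pos KO against WT, by -0.31 in Ter119neg and by 0.13 in LK on the log2 scale, and changes below are relative to the TMM scale. In LK cells 18S ribosomal RNA took 23.4% of counts in KO library B and 18% in WT library B, against at most 0.179% in the other LK libraries. The summed erythroid markers (7 of 8 listed genes measured, none at 0) stood at 335000 to 439000 CPM in Ter119pos KO and 301000 to 336000 CPM in Ter119pos WT, against 769 to 1370 CPM in Ter119neg KO and 399 to 486 CPM in Ter119neg WT.

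All 55 replication genes passed the filter on low counts in both sets of libraries. The smallest count was that of Gins3, with 80 counts in Ter119pos KO library B, and the largest was 22399 counts of Mcm6 in LK WT library A. Per kilobase of the longest annotated transcript, Pcna, the sliding clamp, had the highest mean level in every group, with 206 CPM per kb in LK KO and 262 in LK WT, 92.8 in Ter119neg KO and 110 in Ter119neg WT, and 236 in Ter119pos KO and 267 in Ter119pos WT. Gins3, a subunit of the GINS complex, had the lowest level per kb in 5 groups and Orc4 in LK WT, where it stood at 5.19 CPM per kb. Rrm2, the small subunit of ribonucleotide reductase, was next to Pcna in Ter119pos cells, with 155 CPM per kb in KO and 246 in WT.

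Promoter windows from RefSeq on GRCm38.p6, reaching from 250 bases before to 50 after each annotated start, were matched by symbol for 46 of the 55 genes. They were searched on both strands for the E2F-type letters TTTCCCGC, TTTCGCGC, TTTGCCGC and TTTGGCGC, counting overlapping matches separately. At least 1 match was present in a window of 17 of 46 replication genes (37.0%), against 704 of 27025 genes in the whole table (2.6%). Among windows with a GC content of at least 60%, the counts were 9 of 31 (29.0%) for replication genes and 416 of 9690 (4.3%) for all genes. By step, matches were found in 8 of 13 licensing genes, 1 of 5 firing genes, 1 of 3 fork protection genes, 6 of 17 polymerase genes, 0 of 5 nucleotide supply genes and 1 of 3 chromatin assembly genes. A match is a description of the letters and not a binding site. With matches on either strand in capitals, the windows printed here belong to 3 genes that fell in both KO fetal fractions and hold a match (Clspn, Pold1 and Mcm7), to Tk1, which also fell in both and holds none, and to Orc4, which was higher in all 3 KO populations and holds none.
Clspn, chr4:126556730-126557029, plus strand: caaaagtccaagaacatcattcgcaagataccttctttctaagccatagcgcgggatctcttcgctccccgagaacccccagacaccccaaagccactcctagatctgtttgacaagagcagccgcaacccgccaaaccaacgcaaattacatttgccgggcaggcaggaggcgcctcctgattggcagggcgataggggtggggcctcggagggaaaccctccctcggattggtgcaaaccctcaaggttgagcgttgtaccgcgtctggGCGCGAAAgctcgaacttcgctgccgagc
Pold1, chr7:44548766-44549065, minus strand: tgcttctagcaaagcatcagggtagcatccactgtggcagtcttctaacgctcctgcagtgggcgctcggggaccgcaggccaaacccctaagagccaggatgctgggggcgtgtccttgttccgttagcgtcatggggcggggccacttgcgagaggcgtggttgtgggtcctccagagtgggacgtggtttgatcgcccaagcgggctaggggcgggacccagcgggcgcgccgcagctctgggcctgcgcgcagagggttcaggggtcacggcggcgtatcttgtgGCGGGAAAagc
Mcm7, chr5:138171834-138172133, minus strand: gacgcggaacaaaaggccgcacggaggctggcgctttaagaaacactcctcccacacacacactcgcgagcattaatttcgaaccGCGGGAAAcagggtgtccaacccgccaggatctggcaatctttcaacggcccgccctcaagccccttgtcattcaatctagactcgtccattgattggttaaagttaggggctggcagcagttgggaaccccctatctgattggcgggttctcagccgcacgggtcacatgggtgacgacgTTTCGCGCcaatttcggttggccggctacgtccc
Tk1, chr11:117825965-117826264, minus strand: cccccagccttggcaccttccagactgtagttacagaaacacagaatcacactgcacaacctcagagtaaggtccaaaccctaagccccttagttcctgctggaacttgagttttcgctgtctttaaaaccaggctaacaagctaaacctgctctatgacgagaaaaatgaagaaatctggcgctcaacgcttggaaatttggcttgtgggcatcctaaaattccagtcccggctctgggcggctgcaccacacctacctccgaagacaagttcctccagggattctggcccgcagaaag
Orc4, chr2:48949218-48949517, minus strand: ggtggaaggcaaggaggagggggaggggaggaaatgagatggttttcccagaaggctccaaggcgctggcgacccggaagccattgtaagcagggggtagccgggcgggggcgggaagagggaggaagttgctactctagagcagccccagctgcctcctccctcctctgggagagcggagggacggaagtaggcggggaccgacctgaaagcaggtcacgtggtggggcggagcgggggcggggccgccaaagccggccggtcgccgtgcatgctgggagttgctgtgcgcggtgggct

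The genes lie at chr4:126556935-126593903 (Clspn), chr7:44532746-44548849 (Pold1), chr5:138164583-138172422 (Mcm7), chr11:117815526-117826092 (Tk1) and chr2:48902824-48950277 (Orc4) in GENCODE M21 on GRCm38, and each window surrounds a RefSeq start of its gene; the other windows of Orc4 and Mcm7 hold no match. Mcm7 carries 2 matches, 1 upstream of the start and 1 just after it, and Clspn and Pold1 carry theirs after the start. Of the replication genes, 5 of 46 had 2 or more matches in a single window (10.9%), against 29 of 27025 genes in the table (0.1%). In the next comparison the share with a match was 40.0% both among genes lower in Ter119pos KO (12 of 30) and among genes not called there (4 of 10). It was 57.1% among genes lower in both fetal fractions (8 of 14) and 16.7% among genes higher in Ter119pos KO (1 of 6).

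In Ter119pos cells, the erythroid fraction, most of the replication machinery was lower in KO than in WT. Of the 55 genes, 34 fell and 6 rose at an edgeR adjusted p under 0.05, while 29.3% of the 15566 genes tested were called lower and 24.8% higher (54.2% in all). The median log2 fold change was -0.64 over the replication genes and -0.04 over all genes. Summed over the 55 genes, the level was 4380 to 4440 CPM in KO libraries and 6500 to 6510 CPM in WT libraries. In bulk RNA, fewer cells in S phase and less RNA per cell cannot be told apart. With library totals alone as the scale, 52 of 55 were lower and 0 higher, against 54% and 8.72% of all genes. Orc2, Cdt1, Rfc4, Rpa3 and Pold2, called higher with TMM, then had log2 fold changes of -0.45, -0.49, -0.12, -0.15 and -0.56. The KO and WT libraries did not overlap for 39 genes with lower and 10 with higher KO values, against 39.8% and 35.8% of all genes.

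Marker genes of other cell types also differed between these libraries. Of 7 granulocyte markers 4 fell, at a summed 25.9 to 74.3 CPM in Ter119pos KO against 87.8 to 173 CPM in Ter119pos WT, and of 10 macrophage markers 3 fell, at 58.2 to 75.6 CPM in KO against 55.6 to 105 CPM in WT. Of 4 hepatoblast markers 2 rose and all 4 were above 0, at 49.2 to 69.8 CPM in KO against 25.2 to 35.5 CPM in WT, and of 6 progenitor markers 2 rose and 1 fell, at 28.1 to 34.8 CPM in KO against 23 to 27.1 CPM in WT. Of the lymphoid markers, 4 of 5 listed passed the filter and none was called, at 0.518 to 0.56 CPM in KO against 0.588 to 1.86 CPM in WT. Of the 7 erythroid markers measured, 1 fell. This was Slc4a1, the band 3 anion exchanger of the red cell membrane, with 5008 and 4263 CPM in KO against 14110 and 11760 CPM in WT (log2 fold change -1.48, SE 0.20, edgeR adjusted p = 4.33e-05). The part of these shifts in the replication values was not tested.

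**Figure D1:**
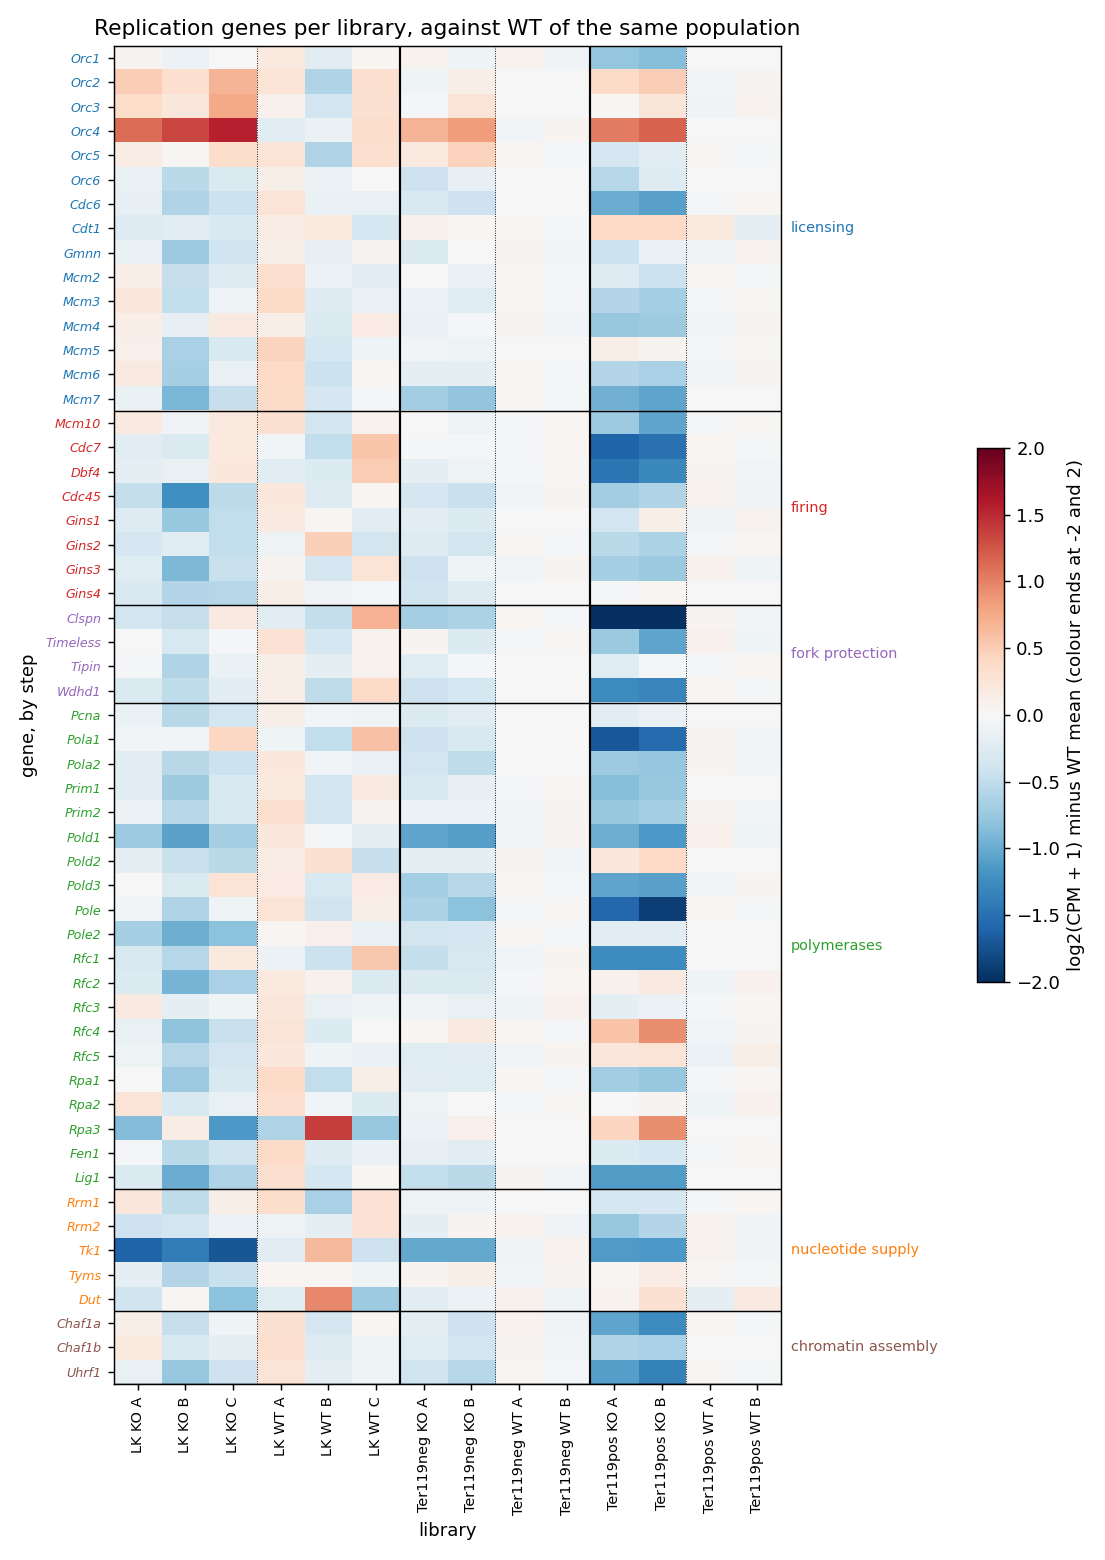
Each row is a replication gene, grouped by step, and each column a library. Colour gives log2(CPM + 1) minus the mean of the WT libraries of the same population, from blue (lower) to red (higher), with colours ending at -2 and 2. Blue fills most rows of both Ter119pos KO columns, deepest in Clspn (log2 fold change -2.37), and Orc4 is red in every KO column; with library totals as the scale, the red Ter119pos KO cells of Orc2, Cdt1, Rfc4, Rpa3 and Pold2 fall below 0.

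Fork protection held the largest change. Clspn encodes claspin, which couples the fork to checkpoint signalling through Chk1. It stood at 30.6 and 27.35 CPM in Ter119pos KO libraries and at 156 and 144 CPM in Ter119pos WT libraries. Both KO values lay far below both WT values, which is -2.37 on the log2 scale (SE 0.11, edgeR adjusted p = 3.27e-08). Wdhd1, the And-1 protein that links helicase to polymerase alpha, had 67.8 and 66 CPM in KO against 169 and 162 CPM in WT (log2 fold change -1.31, SE 0.11, edgeR adjusted p = 8.19e-07). Timeless fell as well (-0.92, edgeR adjusted p = 0.000189), whereas Tipin, its partner in the fork protection complex, was at -0.14 (SE 0.11, edgeR adjusted p = 0.334).

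Of 8 firing genes, 6 fell and none rose. Cdc7, the catalytic subunit of the kinase that phosphorylates the loaded helicase, had 14 and 15.2 CPM in Ter119pos KO libraries and 45.8 and 43.55 CPM in Ter119pos WT libraries. Dbf4, its activating subunit, had 37 and 41.8 CPM in KO and 107 and 100 CPM in WT. The KO libraries of both subunits lay below all WT libraries, with log2 fold changes of -1.62 for Cdc7 (SE 0.11, edgeR adjusted p = 2.93e-07) and -1.40 for Dbf4 (SE 0.11, edgeR adjusted p = 5.45e-07). Mcm10, which helps unwinding start, fell by 0.89 and Cdc45, the helicase cofactor, by 0.66 on the log2 scale. The 4 GINS subunits did not move alike. Gins2 and Gins3 fell (-0.60 and -0.78), while Gins1 and Gins4 were at -0.13 (SE 0.16) and 0 (SE 0.11).

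Licensing split in both directions, with 8 genes lower and 3 higher of 15. Cdc6, the loader ATPase, had 65.8 and 61.9 CPM in Ter119pos KO libraries and 129 and 136 CPM in Ter119pos WT libraries. Mcm7, a helicase subunit, had 143 and 134 CPM in KO and 277 and 281 CPM in WT. Both genes lay lower in every KO library, with log2 fold changes of -1.05 for Cdc6 (SE 0.11, edgeR adjusted p = 4.25e-06) and -1.01 for Mcm7 (SE 0.12, edgeR adjusted p = 1.76e-05). Of the helicase ring, Mcm2, Mcm3, Mcm4 and Mcm6 also fell, by 0.34 to 0.74 on the log2 scale, and Mcm5 was at 0.09 (SE 0.12). Mcm2 (-0.34, edgeR adjusted p = 0.0428) lost its call without KO library B, WT library A or WT library B (0.221, 0.141 and 0.0708) and under 5 other alternatives (0.0701 to 0.337). The origin recognition complex divided. Orc1, its cell cycle regulated subunit, had 29 and 27.5 CPM in KO against 50.8 and 49.96 CPM in WT (log2 fold change -0.83, SE 0.11, edgeR adjusted p = 3.62e-05), and Orc6 fell by 0.42, a call lost without KO library A or WT library B (adjusted p 0.151 and 0.055) and with the fraction fitted alone (0.142). Orc4 had 50.05 and 55.4 CPM in KO and 23.6 and 24.1 CPM in WT, higher in both KO libraries by 1.14 on the log2 scale (SE 0.11, edgeR adjusted p = 3.34e-06), or 0.25 (adjusted p = 0.243) with library totals as the scale. Orc2 (0.44) and Cdt1 (0.39) were called higher with TMM, and both turned below 0 with library totals; Orc2 lost its call without WT library A (adjusted p = 0.0519), and Cdt1 without KO library A, KO library B or WT library B (0.0743, 0.072 and 0.211).

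Polymerase genes included some of the deepest reductions. Pole, the catalytic subunit of the leading strand polymerase epsilon, had 36.7 and 29.2 CPM in Ter119pos KO libraries and 113 and 108 CPM in Ter119pos WT libraries. Pola1, the catalytic subunit of polymerase alpha, had 61.7 and 68.8 CPM in KO and 209 and 196 CPM in WT. Every KO library was below every WT library for both, with log2 fold changes of -1.74 for Pole (SE 0.13, edgeR adjusted p = 4.43e-07) and -1.63 for Pola1 (SE 0.12, edgeR adjusted p = 3.4e-07). Rfc1, the large subunit of the clamp loader, fell by 1.28, Lig1, the ligase of lagging strand fragments, by 1.13, Pold1, the catalytic subunit of polymerase delta, by 1.10 and its subunit Pold3 by 1.09 on the log2 scale. All 4 subunits of polymerase alpha and primase (Pola1, Pola2, Prim1 and Prim2) fell, by 0.72 to 1.63. Fen1, the nuclease that trims lagging strand fragments, fell by 0.32 (edgeR adjusted p = 0.0259), a call lost without KO library A, KO library B or WT library B (0.0613, 0.115 and 0.0928) and under 3 other alternatives (0.116 to 0.347).

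Within other polymerase complexes the subunits parted. Among clamp loader subunits, Rfc1 fell, Rfc2, Rfc3 and Rfc5 were at 0.13, -0.15 and 0.25 without a call, and Rfc4, with 58 and 74.6 CPM in KO against 37.2 and 40.1 CPM in WT, rose with TMM (log2 fold change 0.78) and was at -0.12 with library totals. For the single-strand binding complex, Rpa1 fell by 0.73, Rpa2 was at 0.02 (SE 0.11), and Rpa3 rose by 0.75 with TMM and was at -0.15 with library totals and at 0.09 (adjusted p = 0.661) with the trend on transcript length removed. In polymerase delta, Pold1 and Pold3 fell while Pold2 rose with TMM (0.33), a call that was lost with DESeq2 (adjusted p = 0.121), limma-voom (0.0675), no filter on low counts (0.0572), the length trend removed (0.732) or without KO library B, WT library A or WT library B (0.222, 0.114 and 0.0911), and turned to -0.56 with library totals. Pcna was at -0.18 (SE 0.12) and Pole2, the second subunit of polymerase epsilon, at -0.22 (SE 0.11), neither called.

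Nucleotide supply was lower through 3 of 5 genes. Tk1, the salvage kinase that phosphorylates thymidine, had 42.1 and 41.9 CPM in Ter119pos KO libraries and 98.9 and 89.4 CPM in Ter119pos WT libraries (log2 fold change -1.16, SE 0.11, edgeR adjusted p = 1.99e-06). Both ribonucleotide reductase subunits fell, Rrm2 by 0.67 and Rrm1 by 0.34 (edgeR adjusted p = 0.0373). The call of Rrm1 was lost without any 1 of the 4 Ter119pos libraries (0.0616 to 0.124) and under 5 other alternatives (0.0582 to 0.423). Tyms, which makes dTMP, and Dut, which removes dUTP, were at 0.09 (SE 0.11) and 0.19 (SE 0.14). All 3 chromatin assembly genes fell. Uhrf1, which brings Dnmt1 to newly copied DNA, had 150 and 127 CPM in KO against 330 and 317 CPM in WT (log2 fold change -1.23, SE 0.14, edgeR adjusted p = 8.53e-06), and the histone chaperone subunits Chaf1a and Chaf1b fell by 1.19 and 0.64.

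**Figure D2:**
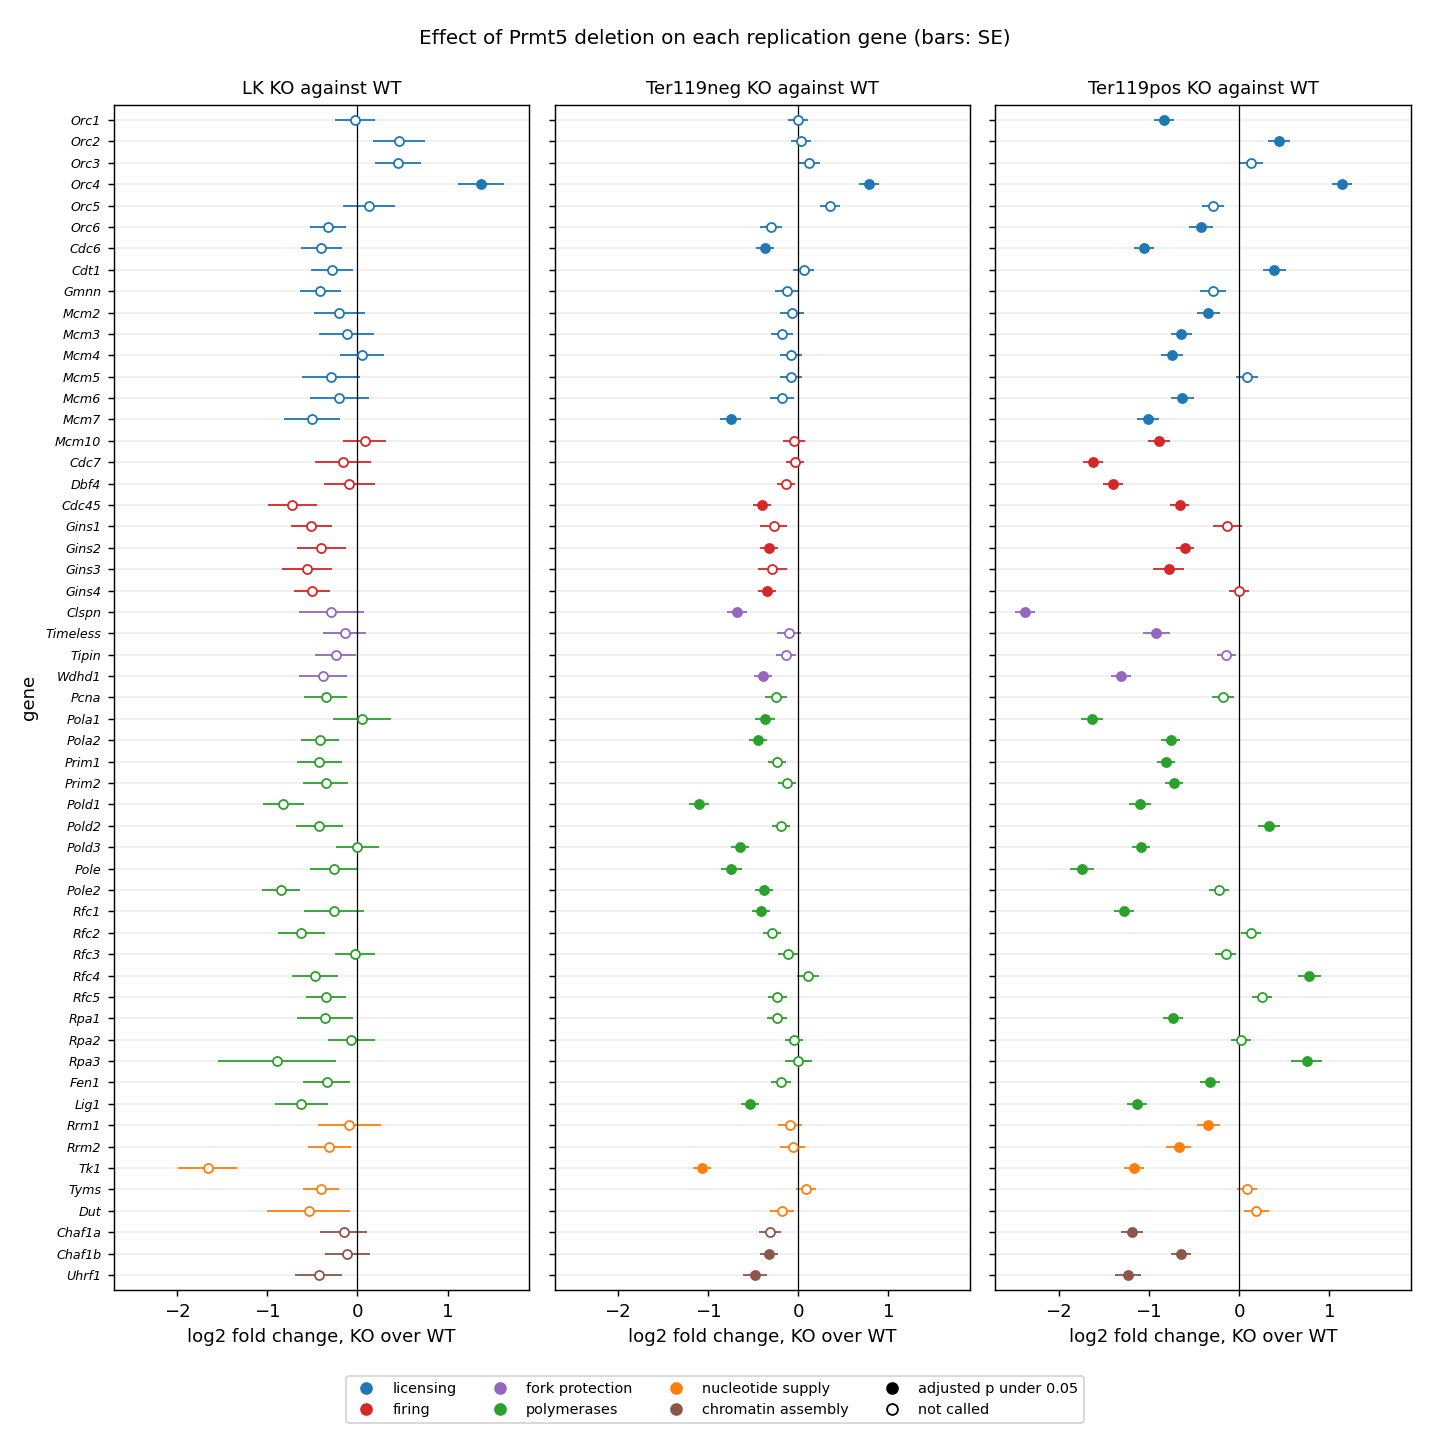
Points give the log2 fold change of KO over WT for each of the 55 genes in LK, Ter119neg and Ter119pos cells, with bars of 1 SE. Filled points passed an edgeR adjusted p under 0.05. Filled points are many and lie mostly left of 0 in Ter119pos, fewer and nearer 0 in Ter119neg, and 1 (Orc4) in LK; with library totals as the scale, the Ter119pos points of Orc2, Cdt1, Rfc4, Rpa3 and Pold2 lie left of 0.

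In Ter119neg cells fewer replication genes passed the test. Of the 55 genes, 18 fell and 1, Orc4, rose in KO, against 9.55% lower and 9.57% higher of all genes tested (19.1% in all). The median log2 fold change was -0.19 for the replication genes and 0.01 for all genes. With library totals as the scale the medians were -0.5 and -0.3, and no called replication gene changed sign. The summed level of the replication genes was 3060 to 3070 CPM in KO libraries and 3560 to 3630 CPM in WT libraries. KO and WT libraries did not overlap for 37 genes with lower and 4 with higher KO values, against 31% and 31.5% of all genes. Fewer than 19 were called whichever of the 4 libraries was left out, which leaves 1 library in that group. No share of all genes is given for those fits. Cdc6, Chaf1b, Gins2, Gins4, Pola1, Pole2 and Wdhd1 lost their call whichever of the 4 was left out, and Cdc45, Pola2, Rfc1 and Uhrf1 lost theirs without at least 1 of them. All 10 macrophage markers were lower in Ter119neg KO, at a summed 110 to 144 CPM against 314 to 368 CPM in WT with none at 0, and 6 of 7 erythroid markers were higher. Of 6 progenitor markers 3 fell (sum 276 to 304 CPM in KO, 320 to 342 CPM in WT), and of 4 lymphoid markers that passed the filter 2 fell (2.01 to 2.69 CPM in KO, 7.61 to 9.04 CPM in WT). All 4 hepatoblast markers were below 0 with 1 called (107 to 212 CPM in KO, 221 to 367 CPM in WT), as were all 7 granulocyte markers with 1 called (895 to 1250 CPM in KO, 1630 to 1670 CPM in WT). The part of these marker shifts in the replication result was not tested.

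Polymerase delta and thymidine salvage carried the largest reductions there. Pold1 had 35.9 and 34.7 CPM in Ter119neg KO libraries and 73.2 and 78.6 CPM in Ter119neg WT libraries. Tk1 had 20.2 and 20.3 CPM in KO and 40.2 and 44.7 CPM in WT. Both genes were lower in each KO library by about the same measure, with log2 fold changes of -1.10 for Pold1 (SE 0.11, edgeR adjusted p = 4.6e-05) and -1.07 for Tk1 (SE 0.10, edgeR adjusted p = 4.58e-05). By step, 8 of 20 polymerase genes fell. Besides Pold1 these included Pole (-0.74), Pold3 (-0.65) and Lig1 (-0.53), each with an edgeR adjusted p of 0.00427 or below.

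Of 15 licensing genes, Mcm7 and Cdc6 fell and Orc4 rose in Ter119neg KO. Mcm7 had 107 and 100 CPM in KO against 178 and 171 CPM in WT (log2 fold change -0.75, SE 0.12, edgeR adjusted p = 0.00109). The other 5 subunits of the helicase ring were at -0.18 to -0.07 and none was called. Orc4 stood at 32.6 and 36.4 CPM in KO and 19.2 and 20.95 CPM in WT (log2 fold change 0.78, SE 0.11, edgeR adjusted p = 0.000392; 0.47 and 0.0558 with library totals). Orc5 was at 0.35 with an adjusted p of 0.0502.

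Of the firing genes, Cdc45, Gins2 and Gins4 fell in Ter119neg KO (-0.40, -0.32 and -0.35 on the log2 scale). Neither subunit of the firing kinase was called: Cdc7 had 14.6 and 14.47 CPM in KO against 14.51 and 15.3 CPM in WT (-0.04, SE 0.10) and Dbf4 was at -0.14 (SE 0.10). Clspn had 18.5 and 19 CPM in KO and 30.9 and 29.2 CPM in WT, lower in both KO libraries (log2 fold change -0.68, SE 0.11, edgeR adjusted p = 0.000977), and Wdhd1 fell by 0.39. Of the chromatin assembly genes Uhrf1 (-0.48) and Chaf1b (-0.32) fell, with edgeR adjusted p of 0.0244 and 0.0419, and Chaf1a was at -0.31 (adjusted p = 0.0886). The nucleotide genes other than Tk1 were at -0.18 to 0.09 with no call.

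In LK cells a single replication gene passed the test. Orc4 had 46.3, 54.2 and 62.9 CPM in LK KO libraries and 17.8, 18.8 and 26.7 CPM in LK WT libraries. Every KO library lay above every WT library, and the log2 fold change was 1.37 (SE 0.25, edgeR adjusted p = 0.0449). The call of 1 higher and 0 lower compares with 1.15% and 0.661% of 13771 genes (1.82% in all), a share near that of the group. At an unadjusted p under 0.05, edgeR gave 1 higher and 6 lower, with no share of all genes at that threshold to set beside them. DESeq2 called 1 higher and 3 lower, against 3.91% and 3.88% of all genes (7.8% in all), and limma-voom 1 higher and 1 lower, against 1.39% and 0.806% (2.2% in all). Orc4 lost its call without KO library A, B or C, WT library A or WT library B (adjusted p 0.184, 0.165, 0.169, 0.164 and 0.0653) and with library totals (0.246), while its log2 fold change stayed between 1.25 and 1.58 over all alternatives.

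Libraries of the same letter (A, B or C) deviated together in LK cells. With the letter as a block 2 genes were called higher and 10 lower, against 9.9% and 12.8% of all genes (22.7% in all). Counted in both directions, the share of replication genes called was near that of all genes. The higher ones were Orc4 (1.38, edgeR adjusted p = 0.00188) and Orc3 (0.45, 0.0487). Tk1 had 55.8, 64.4 and 51.6 CPM in LK KO libraries and 147, 268 and 128 CPM in LK WT libraries. All 3 KO values lay below all 3 WT values, and Tk1 was at -1.66 (SE 0.33, edgeR adjusted p = 0.0567) without the block and at -1.58 (adjusted p = 0.00267) with it. Pold1 had 106, 83.2 and 110 CPM in KO and 204, 173 and 153 CPM in WT, again without overlap (-0.82, adjusted p = 0.132; 0.0142 with the block). Others that edgeR called lower with the block and not without it were Pole2 (-0.85), Cdc45 (-0.75), Lig1 (-0.63), Rfc2 (-0.62), Gins3 (-0.57), Mcm7 (-0.51), Gins4 (-0.50) and Rfc4 (-0.48). Without a block, DESeq2 called Tk1, Pole2 and Pold1 lower, and limma-voom Tk1.

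Across the 55 genes in LK the log2 fold change was below 0 for 47, with a median of -0.33 against -0.09 for all genes. KO and WT libraries did not overlap for 11 genes with lower and 2 with higher KO values, against 12.9% and 11.3% of all genes. The summed level was 4970 to 6810 CPM in LK KO libraries and 6500 to 8360 CPM in LK WT libraries, ranges that overlap. Within each letter it was lower in KO, with 6810 CPM in KO against 8360 CPM in WT for A, 4970 against 6500 CPM for B and 6070 against 7100 CPM for C. The summed granulocyte markers (7 of 7 measured, none at 0) stood at 7430 to 15100 CPM in LK KO and 19200 to 44300 CPM in LK WT, with 0 of 7 called. Of 10 macrophage markers 6 passed the filter and 1 was called lower. The 10 summed to 230 to 828 CPM in LK KO and 566 to 2900 CPM in LK WT. Lyz2 held most of this sum, with 187, 131 and 610 CPM in LK KO libraries and 287, 372 and 2660 CPM in LK WT libraries. Progenitor markers (6 of 6) stood at 1210 to 1650 CPM in LK KO and 1100 to 1230 CPM in LK WT, with 0 called. Of 7 erythroid markers 1 was called lower, at a summed 59.1 to 185 CPM in LK KO and 64.2 to 338 CPM in LK WT. The part of these shifts in the replication values was not tested.

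**Figure D3:**
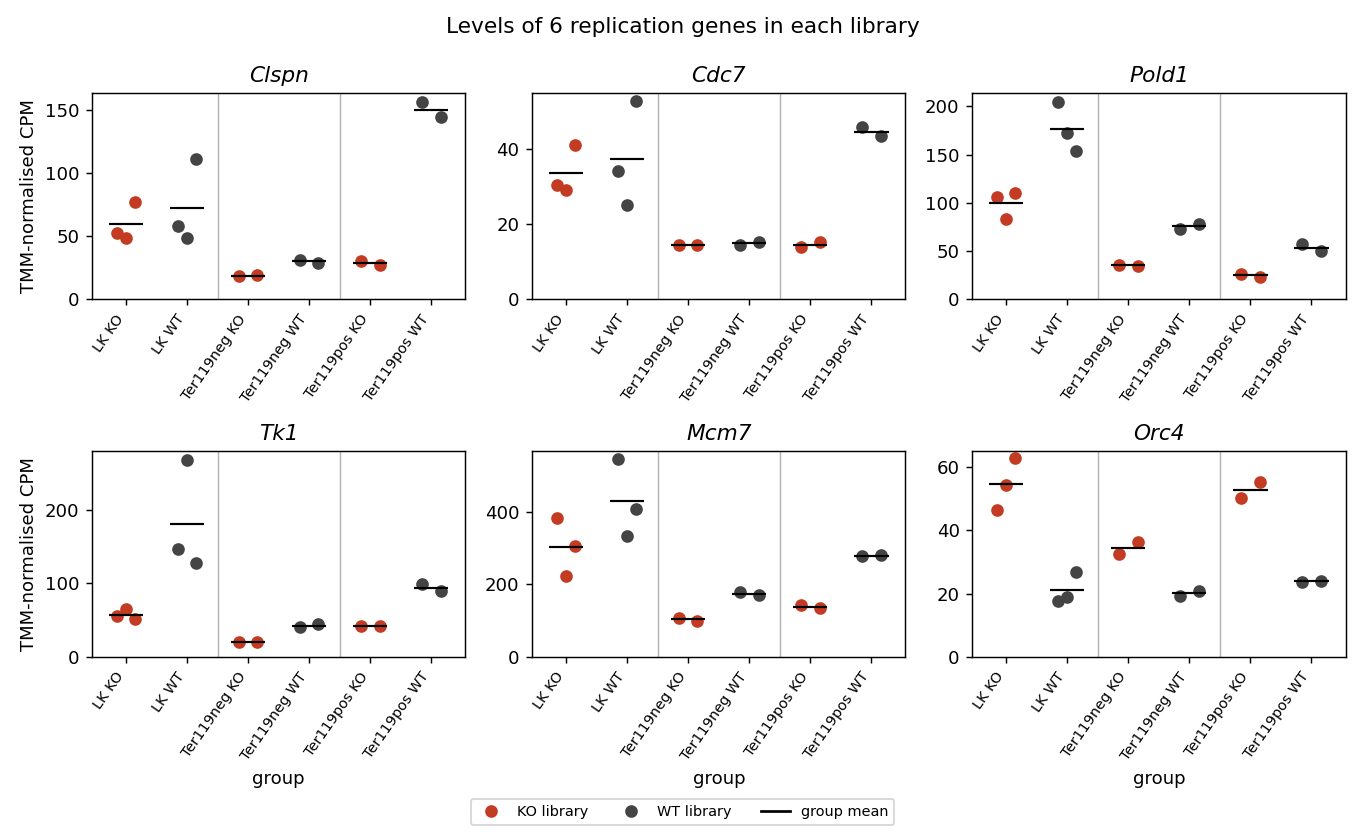
Points are single libraries and bars group means of TMM-normalised CPM for Clspn, Cdc7, Pold1, Tk1, Mcm7 and Orc4, with KO left of WT in each population. Clspn and Cdc7 average 29 and 14.6 CPM in Ter119pos KO against 150 and 44.7 CPM in Ter119pos WT, Tk1 and Pold1 are lower in KO in all 3 populations, and Orc4 is higher; the Orc4 direction held with library totals.

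Set side by side, 16 genes fell in both fetal fractions, against 4.34% of all genes tested. In Ter119pos without a call in Ter119neg 18 fell, against 23.6% of all genes, and in Ter119neg without a call in Ter119pos 2 fell (Gins4 and Pole2), against 4.32%, while 13 were called in neither, against 39.2%. The log2 fold change was below 0 in all 3 populations for 36 genes and above 0 in all 3 for Orc2, Orc3 and Orc4, against 21.9% and 16.2% of the 13042 genes tested in all 3. Tk1 was at -1.66 in LK, -1.07 in Ter119neg and -1.16 in Ter119pos cells, and Pold1 at -0.82, -1.10 and -1.10. Orc4 ran the other way at 1.37, 0.78 and 1.14. The spread over the 3 values was widest for Clspn, at -0.29 (SE 0.36), -0.68 and -2.37.

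The difference between the KO effects in the 2 fetal fractions was tested directly. It was below 0, so that the KO effect was lower in Ter119pos than in Ter119neg, for 21 genes, and above 0 for 5, against 22.4% and 19.3% of all genes (41.7% in either direction). With library totals the counts were 35 and 0, against 34.3% and 7.28% of all genes, and with globin genes removed 18 and 9, against 19% and 22.7%. With the mouse as a block they were 23 and 7, against 21.6% and 18.6% of all genes (40.2% in all). Clspn led (difference -1.69, SE 0.15, edgeR adjusted p = 1.53e-05), followed by Cdc7 (-1.58, SE 0.15, edgeR adjusted p = 2.21e-05), Pola1 (-1.26) and Dbf4 (-1.25). Pole, Wdhd1, Chaf1a, Rfc1, Mcm10 and Orc1 had differences of -1, -0.92, -0.88, -0.88, -0.84 and -0.83. These 10 kept their calls under all 18 alternatives run. For Tk1 and Pold1 the difference was -0.10 (SE 0.15) and 0.01 (SE 0.16), so that no change of their KO effect between fractions was detected. The 5 positive differences, all in the polymerase group (Rpa3 0.75, Rfc4 0.66, Pold2 0.52, Rfc5 0.48 and Rfc2 0.43), went without a call when Ter119pos KO library B was left out, 2 genes were called above 0 without Ter119pos WT library A, and Pold2, Rfc5 and Rfc2 turned below 0 with library totals (-0.07, -0.11 and -0.16).

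The same difference can be read as how far each genotype changes between fractions. In WT embryos, on the TMM scale, 43 of 55 replication genes were higher and 5 lower in Ter119pos than in Ter119neg cells, against 35.9% and 40.4% of all genes (76.3% in either direction), and the median log2 fold change was 0.79 against -0.19; with library totals as the scale the counts were 6 higher and 25 lower, against 16.6% and 65% of all genes, and the median -0.37. The TMM and totals scales differ by -1.16 in the median of all genes here, and globin took 25.1% and 24.6% of counts in Ter119pos WT against 0.0917% and 0.0679% in Ter119neg WT. Rrm2 had the largest difference, with 563.9 and 515.1 CPM in Ter119pos WT against 89.8 and 82.1 CPM in Ter119neg WT (log2 fold change 2.65, SE 0.15, edgeR adjusted p = 7.7e-09). Clspn (2.32), Dbf4 (1.95), Pola1 (1.87), Prim2 (1.82), Cdc7 (1.58) and Wdhd1 (1.56) followed on the TMM scale. At the other end Pold2 had 13.59 and 13.71 CPM in Ter119pos WT against 38.4 and 35.5 CPM in Ter119neg WT (-1.44, SE 0.11, edgeR adjusted p = 1.47e-07), and Dut was at -0.85. WT libraries of the fractions did not overlap for 47 genes with higher and 6 with lower Ter119pos values, against 41% and 48.2% of all genes.

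In KO embryos, on the TMM scale, 37 of 55 genes were higher and 5 lower in Ter119pos than in Ter119neg cells, against 30.3% and 32.3% of all genes (62.6% in either direction), with a median of 0.51 against -0.12; with library totals the counts were 0 and 51, against 5.92% and 78.8% of all genes, and the median -1.24, after a shift of -1.74 in all genes. Libraries did not overlap for 40 genes with higher and 10 with lower Ter119pos values, against 37.9% and 44% of all genes. Cdc7 had 14 and 15.2 CPM in Ter119pos KO and 14.6 and 14.47 CPM in Ter119neg KO, a log2 fold change of 0 (SE 0.11) beside the 1.58 in WT. Clspn was at 0.63 (SE 0.11) beside 2.32 in WT. Rrm2, Tyms, Pcna and Gins4 kept differences of 2.04, 1.44, 1.35 and 1.46, beside 2.65, 1.44, 1.28 and 1.11 in WT. Timeless was at -0.89 (edgeR adjusted p = 0.000162) in KO and -0.08 (adjusted p = 0.619) in WT. With the mouse as a block, which rests WT on mouse 4, the counts were 43 higher and 6 lower in WT, against 33.5% and 35.1% of all genes (68.5% in all), and 38 higher and 7 lower in KO, against 32% and 34.1% (66.1% in all).

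**Figure D4:**
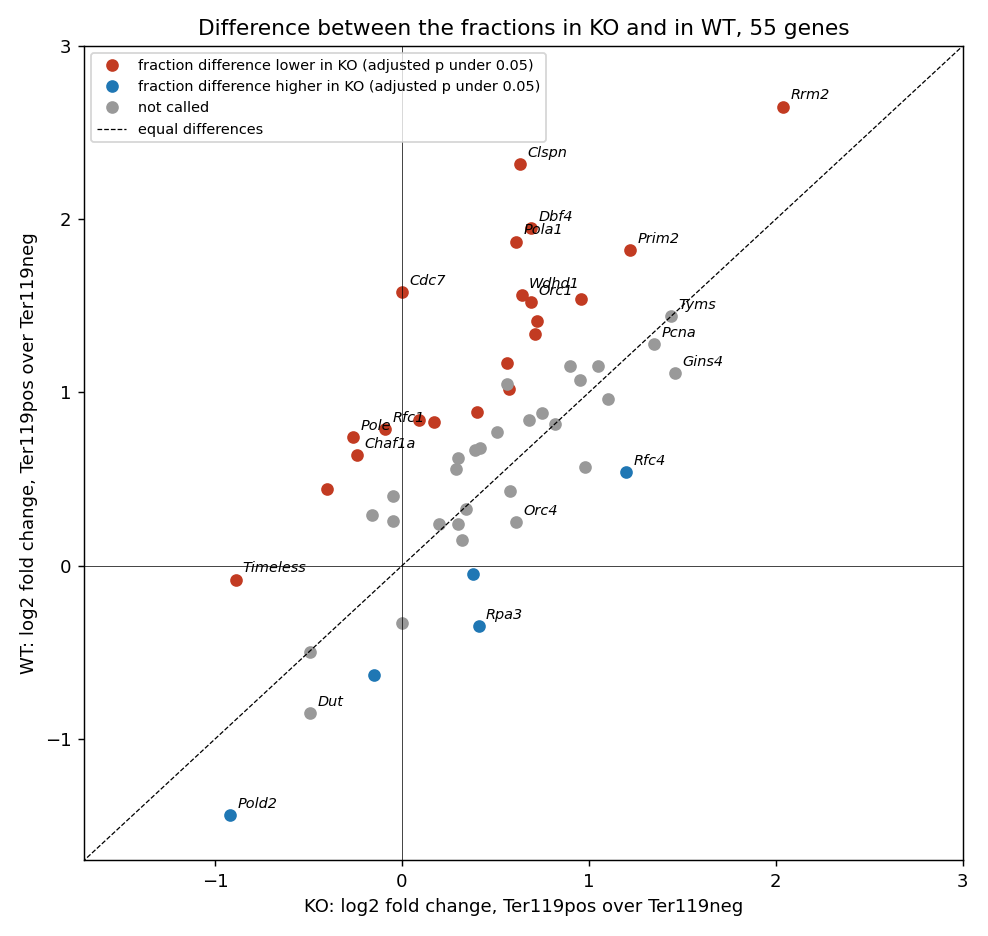
Each point is a replication gene, with its log2 fold change of Ter119pos over Ter119neg in KO on the horizontal axis and in WT on the vertical axis, on the TMM scale. Colour marks genes whose difference between genotypes passed an edgeR adjusted p under 0.05, 21 lower and 5 higher in KO, and the dashed line marks equal values. Most coloured points lie above the line, with Clspn at 0.63 in KO and 2.32 in WT and Cdc7 at 0 and 1.58; with library totals, Pold2, Rfc5 and Rfc2 cross to the other side.

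Of 39 other replication genes, 25 fell and 3 rose in Ter119pos KO (median -0.66), against 29.3% and 24.8% of all genes. Those with the smallest p were Atad5, which unloads the clamp (-1.67), Ticrr, which acts in firing (-1.75), the maintenance methyltransferase Dnmt1 (-1.88), Donson (-1.32), Chtf18 of an alternative clamp loader (-1.21) and Supt16 of the histone chaperone FACT (-1.25), each with an edgeR adjusted p of 3.38e-06 or below. In Ter119neg KO 13 fell and 1 rose, against 9.55% and 9.57% of all genes, led by the ribonuclease H2 subunits Rnaseh2c (-1.33) and Rnaseh2a (-0.89) and by Chtf18 (-1.24), and Dna2, a nuclease of fragment processing, rose by 0.46. In LK, fitted without the letter block, edgeR called none, and 10 were lower and 0 higher at an unadjusted p under 0.05. The histone chaperone Asf1b was at -1.16 there (edgeR adjusted p = 0.0808). Of 12 genes of G2 and mitosis, 11 fell in Ter119pos KO, against 29.3% of all genes. Their sum there was 2560 to 2640 CPM against 12700 to 14400 CPM in WT. Mki67 held most of the WT sum, with 10630 and 9144 CPM in WT against 1237 and 1249 CPM in KO. The log2 fold changes of the 12 ran from -2.99 to -0.05, with a median of -0.97. In Ter119neg KO 4 fell, against 9.55%. In LK edgeR called none without the letter block, with 2 lower at an unadjusted p under 0.05. Both lists were counted in LK only without the block, a fit that called 1.82% of all genes, against 22.7% with the block. No share of all genes at the unadjusted threshold is given for them.

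Transcript length moved with the KO effect. In Ter119pos cells the 12 replication genes with a longest transcript under 2 kb had a median log2 fold change of -0.06, with 1 lower and 3 higher, and the 43 of 2 kb or more had a median of -0.74, with 33 lower and 3 higher. Spearman's rho with length was -0.45 across these 55 genes and -0.21 across all genes tested, which had medians, in 4 equal groups from short to long, of 0.54, 0.04, -0.19 and -0.37. These correlations are across genes that share libraries and carry no test. In LK the order was opposite, with medians in the 4 groups of -0.33, -0.18, -0.03 and 0.14 and a rho of 0.39 across the replication genes. With the length trend removed from each library, 38 replication genes were lower and 6 higher in Ter119pos KO, against 29.2% and 23.1% of all genes.

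**Figure D5:**
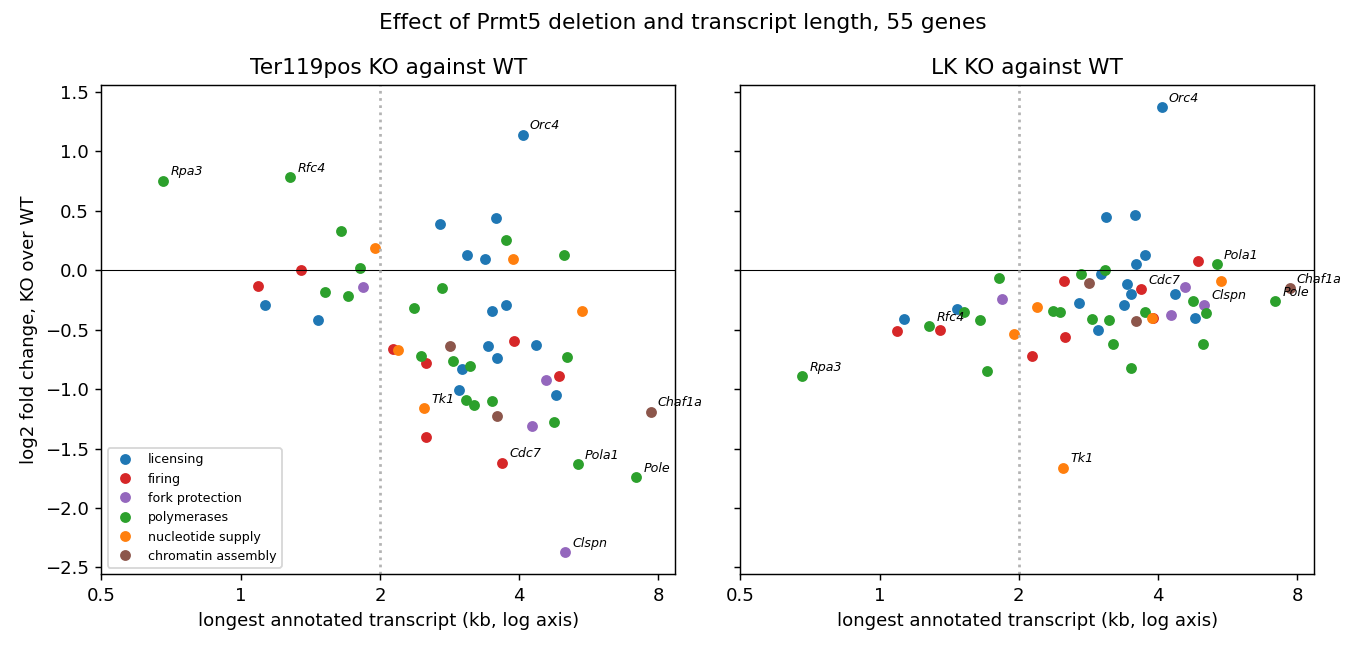
Each point is a replication gene, with the length of its longest annotated transcript in kb on a log axis and its log2 fold change of KO over WT on the vertical axis, in Ter119pos (left) and LK cells (right). The dotted line marks 2 kb. Long genes such as Clspn, Pole and Pola1 (-2.37, -1.74 and -1.63) lie lowest in Ter119pos, and the short genes Rpa3 and Rfc4 lie above 0 (0.75 and 0.78; -0.15 and -0.12 with library totals).

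Exons of 20 of the 55 genes share bases with another annotated gene, on the opposite strand for 17. The kit marks strand, and whether counting used it is not stated in the sources used here. Orc4 overlaps Acvr2a and Mbd5 on the opposite strand, which were at 0.78 and 0.48 in LK, 0.32 and 0.35 in Ter119neg and -0.25 and 0.01 in Ter119pos KO against WT, none of them called. Tk1 overlaps Afmid, at -0.34 and -0.42 without a call in LK and Ter119neg and at -1.45 in Ter119pos (edgeR adjusted p = 0.0022). Mcm7 overlaps Cops6, at 0.69 in Ter119pos, and Ap4m1, at -0.37 (edgeR adjusted p = 0.000248 and 0.0259). Partners of other genes that fell were also called lower in Ter119pos KO. These were Gm15792 with Pole (-4.17), Gm10143 with Fen1 (-1.61), Gm12743 with Orc1 (-1.33), Gm26847 with Timeless (-1.15) and Gse1 with Gins2 (-1.14). Called higher were Ubxn6 with Chaf1a (0.57) and Tmem258 with Fen1 (0.93). Wsb2, which overlaps Rfc5 (0.25, not called), was also higher, at 1.09 (edgeR adjusted p = 0.000369). Whether reads were shared with these partners was not tested. Pcna has 2 pseudogene rows in the tables, so that its reads could be shared with them.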

How the data were processed

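RNA was extracted with Trizol (fetal liver) or an RNeasy Plus Micro kit (LK), and TruSeq Total Stranded libraries were made, with Ribo-Zero depletion for fetal liver, per the labels' protocols. The deposited values are expected counts per gene, which the authors estimated with RSEM. Per the submitters' processing notes, reads were aligned with STAR 2.5.3 and the build was GRCm38 (mm10). Neither which RSEM release was run nor how counting treated strand is given in the sources used here. Read totals are in the report; counts limit precision only for the lowest genes, and no splicing was measured.

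Expected counts were rounded and tested with the quasi-likelihood F test of edgeR 4.0.16 (R 4.3.3) with TMM scaling and filterByExpr, in 1 model of the 8 fetal libraries and 1 of the 6 LK libraries, with Benjamini-Hochberg adjustment over all genes of a comparison and a threshold of 0.05. SE is the log2 fold change divided by the square root of F. limma 3.58.1 (voom), DESeq2 1.42.0, other scalings and filters, left-out libraries and blocks were alternatives. The fits were also run on simulated counts with the same spread for every gene and no shift of composition between libraries. That simulation cannot show how the tests behave under the composition shifts or the LK letters of these data. Transcript lengths and exons came from GENCODE M21, which matched 45143 of 45706 gene rows.

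The replication genes, the lists and the tests were chosen with earlier results of these data known. All 55 genes could be named, and full statistics went to at most the 4 of smallest p per step, with Orc4, Tk1, Pold1 and Mcm7 followed through every population. Deviations from group means correlated between KO and WT libraries of the same letter in LK (r = 0.604, 0.719 and 0.73; at most -0.0273 between letters), so that letters were taken as pairs there from the data, as the labels do not say what a letter shares. In fetal liver the letters gave 0.00472 and -0.0288. The same mouse gave both fractions for mice 1, 2 and 4, per the labels, with r of 0.155 in KO and -0.0678 in WT.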

Additional observations from a re-analysis of the deposited data

Results flagged for a closer look

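For 26 of 55 replication genes the KO effect differed between the fetal fractions in the edgeR interaction test (adjusted p under 0.05). The share over all genes tested was 41.7%, not far from that of the replication genes when both directions are counted. By direction 21 were below 0 and 5 above 0, against 22.4% and 19.3% of all genes. Of the 26, only Clspn, Cdc7, Dbf4, Pola1, Pole, Wdhd1, Chaf1a, Rfc1, Mcm10 and Orc1 kept their call under all 18 alternatives. Each value is the log2 KO effect in Ter119pos minus that in Ter119neg, from 2 libraries in each of the 4 groups. In licensing, Orc1 was at -0.83, Cdc6 at -0.68, Mcm4 at -0.66 and Orc5 at -0.63. In firing, Cdc7 was at -1.58, Dbf4 at -1.25 and Mcm10 at -0.84. In fork protection, Clspn was at -1.69, Wdhd1 at -0.92 and Timeless at -0.81. Among polymerase genes below 0, Pola1 was at -1.26, Pole at -1, Rfc1 at -0.88, Lig1 at -0.61, Prim2 at -0.60, Prim1 at -0.58, Rpa1 at -0.49 and Pold3 at -0.44. Above 0 were Rpa3 at 0.75, Rfc4 at 0.66, Pold2 at 0.52, Rfc5 at 0.48 and Rfc2 at 0.43, of which Pold2, Rfc5 and Rfc2 turned below 0 with library totals as the scale. In nucleotide supply Rrm2 was at -0.61, and in chromatin assembly Chaf1a was at -0.88 and Uhrf1 at -0.75.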

How the results depend on the processing

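With 2 or 3 libraries a group, single calls near the threshold were unstable. In LK the count of 1 called gene became 2 with no filter on low counts, 4 with DESeq2 and 2 with limma-voom. It was 12 with the letter as a replicate block and 2 with the length trend removed. With library totals or without both letter B libraries it was 0. The share of all genes called was 1.82% in the main fit, 7.8% with DESeq2, 2.2% with limma-voom and 22.7% with the letter block. No share is given for the other LK settings. Without 1 library the count was 0 to 1, and it was 0 without KO library A, B or C or WT library A. The 1 gene without WT library B was lower, not Orc4. In Ter119neg the 19 calls became 9 to 12 without 1 library, and 7 genes (Clspn, Lig1, Mcm7, Pold1, Pold3, Pole and Tk1) kept their call under all 14 alternatives. In Ter119pos 30 of 40 kept it under all 14, and Orc4, Orc2, Cdt1, Orc6, Mcm2, Rfc4, Rpa3, Pold2, Fen1 and Rrm1 did not. The fetal letters pair no KO library with a WT library by mouse, but they do pair the 2 fractions of mice 1, 2 and 4. In WT, letter A joins mouse 3 (Ter119neg) with mouse 5 (Ter119pos). The letter block is a shift between letters A and B shared by all fetal groups, and not a term for each mouse. With the letters as a block the calls were 22 in Ter119neg, 41 in Ter119pos and 28 for the difference between fractions. These counts are given without the share over all genes. Library totals, the length trend, protein-coding genes alone and leaving out both letter B libraries were chosen after seeing the data. With library totals, Orc2 (-0.45), Cdt1 (-0.49), Rfc4 (-0.12), Rpa3 (-0.15) and Pold2 (-0.56) reversed in Ter119pos KO, as did the differences between fractions of Pold2 (-0.07), Rfc5 (-0.11) and Rfc2 (-0.16), and the median change from Ter119neg to Ter119pos became -0.37 in WT, with 31 calls, and -1.24 in KO. With the length trend removed, Rpa3 turned to -0.28 between KO fractions. The cause was not tested for any of these shifts.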
